A study of Mus musculus with 19 samples.

Results

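The proteasome and immunoproteasome subunits were followed as transcripts in splenic dendritic cells that lacked Xbp1 alone or Xbp1 together with Ern1, the gene of the stress sensor IRE1. The members were taken by symbol as 41 genes of the 24421 in the count tables. They comprised 3 constitutive catalytic subunits, 3 immune catalytic subunits, 7 subunits of the alpha ring, 4 other subunits of the beta ring, 6 ATPases and 11 non-ATPases of the 19S regulator, 4 alternative activators and 3 assembly factors. All 41 passed the filter on low counts in every fit, and the lowest count of any member in any library was 147, for Psmg2. Bulk RNA was sequenced from cDC1 and cDC2, the subsets of conventional dendritic cells, sorted from the spleens of C57BL6 mice labelled Xbp1-Ire1 KO, Xbp1 KO and WT. Each cell type and genotype had 3 libraries, except that cDC2 WT had 4, which gives 19 in all. The labels name no promoter or Cre line that drives the deletions, no age of the mice and no pooling. Sample descriptions name the line with floxed Xbp1 and Ire1 alleles (fl-fl) for WT replicates 1 and 2 of each cell type, and a WT line for replicate 3 of cDC1 WT and for replicates 3 and 4 of cDC2 WT. Across the cell types 6 pairs of libraries share a description name and number, and the reported tests between cell types treated them as unpaired. Whether replicates came from separate mice is not stated. The p-values therefore rest on sample-to-sample spread alone, part of which may be technical.

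The 20S core of the proteasome is a barrel of alpha and beta rings that cuts unfolded proteins into peptides, and the 19S regulator binds ubiquitin chains, unfolds the substrate and feeds it into the core. In the immunoproteasome the constitutive catalytic subunits encoded by Psmb5, Psmb6 and Psmb7 are replaced by those encoded by Psmb8 (LMP7), Psmb9 (LMP2) and Psmb10 (MECL-1), which shifts the peptides made towards those that bind MHC class I. Dendritic cells contain immunoproteasomes without prior stimulation, and the cDC1 subset is specialised in presenting peptides of engulfed cells on MHC class I. XBP1 is the transcription factor made after IRE1 splices its mRNA, and its known targets include genes of endoplasmic reticulum protein folding and degradation.

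Sequences just upstream of a transcription start were read for the members from the RefSeq promoter table of build GRCm38.p6. A window was found for 34 of the 41 members, 37 windows in all, and the 250 bases before each start were searched on both strands. The windows of Psmb5 and Psmb6 are shown in full because these genes had the lowest and the second lowest log2 fold change of the catalytic subunits in cDC1 of Xbp1 KO mice, and because both hold a match to the antioxidant response element searched as TGACNNNGC. For Psmb8 a short stretch around a match to the interferon gamma activated sequence, searched as TTCNNNGAA, is shown. The start that the table uses for Psmb8 lies inside the gene as GENCODE M21 annotates it (GRCm38 chr17:34197721-34201454, plus strand), so this stretch is upstream of that start but within the gene. Capitals mark the matches and all sequences run 5′ to 3′ on the strand of the gene.
Psmb5, chr14:54617996-54618245, minus strand: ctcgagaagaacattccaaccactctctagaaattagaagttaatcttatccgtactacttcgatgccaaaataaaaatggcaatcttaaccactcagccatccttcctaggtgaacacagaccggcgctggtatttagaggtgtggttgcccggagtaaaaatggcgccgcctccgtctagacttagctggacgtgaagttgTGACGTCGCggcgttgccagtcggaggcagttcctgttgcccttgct
Psmb6, chr11:70525107-70525356, plus strand: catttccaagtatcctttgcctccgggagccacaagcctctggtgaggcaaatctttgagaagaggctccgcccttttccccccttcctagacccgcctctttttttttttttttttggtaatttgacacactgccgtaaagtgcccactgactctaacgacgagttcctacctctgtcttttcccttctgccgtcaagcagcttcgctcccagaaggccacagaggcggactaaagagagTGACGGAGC
Psmb8, chr17:34198088-34198116, plus strand: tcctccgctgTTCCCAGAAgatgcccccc

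The antioxidant response element was matched in 4 of 37 member windows (10.8%), those of Psmb5, Psmb6, Psmc6 and Psmd12, and in 10.2% of all 32851 windows in the table. The interferon gamma activated sequence was matched in 5.41% of member windows, those of Psmb8 and Psmg1, and in 7.02% of all windows. The interferon-stimulated response element, searched as GAAA, any 2 bases and GAAA, was matched for Psmb3 and Psmd4 (5.41% of member windows and 2.98% of all). The element TGACGTGG, bound by XBP1, had no match in the member windows and was found in 0.563% of all windows. The element TGATGNAA, bound by ATF4 with C/EBP factors, was matched for Psmd13 (2.7% of member windows and 3.45% of all). A CCAAT box was matched in 32.4% of member windows and 33.8% of all. A match is a run of letters in the window and was not tested as a binding site.

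Library totals lay between 10606864 and 16209469 counts, and Xcr1 and Sirpa separated the cell types as labelled, with Xcr1 at 912 to 1344 CPM in cDC1 and 5.46 to 18.3 CPM in cDC2 and Sirpa at 5.57 to 67.7 CPM in cDC1 and 1220 to 1606 CPM in cDC2. CPM are counts per 1000000 after TMM scaling over all 19 libraries. The marker sums that follow are instead counts per 1000000 of each library's total, without this scaling. Xbp1 had 359, 346 and 312 CPM in cDC1 Xbp1-Ire1 KO, 99.0, 92.9 and 117 CPM in cDC1 Xbp1 KO and 239.8, 149.6 and 147 CPM in cDC1 WT. Ern1 had 72.6, 62.3 and 52.3 CPM in cDC1 Xbp1-Ire1 KO and 23.05, 29.9 and 24.1 CPM in cDC1 WT. Counts over whole genes include transcripts without the deleted exons, so they check neither deletion. Pancreatic acinar transcripts (15 listed) reached a sum of 2230 CPM in 1 library, replicate 3 of cDC1 Xbp1 KO, while the highest sum among the other libraries was 10.3 CPM. Markers of mature dendritic cells (10 listed) summed to 722 to 1023 CPM in cDC1 Xbp1-Ire1 KO, 1342 to 1724 CPM in cDC1 Xbp1 KO and 1345 to 2812 CPM in cDC1 WT. Neutrophil markers (4 listed) summed to 16.3 to 56.3 CPM in cDC1 Xbp1-Ire1 KO, 0 to 11.7 CPM in cDC1 Xbp1 KO and 0.762 to 7.43 CPM in cDC1 WT. Markers of plasmacytoid dendritic cells (6 listed) summed to 133 to 172 CPM in cDC1 Xbp1-Ire1 KO, 53.7 to 74.4 CPM in cDC1 Xbp1 KO and 56.1 to 66.3 CPM in cDC1 WT. Monocyte markers (5 listed) summed to 219 to 375 CPM in cDC1 Xbp1-Ire1 KO, 411 to 556 CPM in cDC1 Xbp1 KO and 325 to 394 CPM in cDC1 WT. Markers of cDC1 themselves (8 listed) summed to 8876 to 10776 CPM in cDC1 Xbp1-Ire1 KO, 10661 to 11596 CPM in cDC1 Xbp1 KO and 8685 to 10019 CPM in cDC1 WT, so that both sums were higher in every Xbp1 KO library than in every WT library. T cell and erythroid markers, with ranges that also stood apart between some cDC1 groups, summed to at most 10.03 and 19.2 CPM in cDC1. In cDC2, plasma cell markers (5 listed) summed to 56.8 to 196 CPM in Xbp1-Ire1 KO, 75.8 to 151 CPM in Xbp1 KO and 44.99 to 67.3 CPM in WT, and cDC2 markers (8 listed) to 2538 to 3028 CPM in Xbp1-Ire1 KO, 3003 to 3491 CPM in Xbp1 KO and 2419 to 2964 CPM in WT. The part of these markers in the member differences was not tested, apart from counts without the library with pancreatic transcripts.

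Among the 3 genotypes of cDC1, constitutive catalytic subunit transcripts were lowest in Xbp1 KO. Psmb5, which encodes the chymotrypsin-like subunit (GRCm38 chr14:54614119-54618022), had 145, 152 and 195 CPM in cDC1 Xbp1-Ire1 KO, 107, 87.2 and 111 CPM in cDC1 Xbp1 KO and 243, 207 and 148 CPM in cDC1 WT. Every Xbp1 KO library lay below every WT and every Xbp1-Ire1 KO library, and the lowest WT library was replicate 3. The log2 fold change of Psmb5 for Xbp1 KO against WT was −0.98 ± 0.18 (SE; edgeR's quasi-likelihood test, adjusted p = 0.00401, n = 3 each). Psmb6, the caspase-like subunit, had 246, 194 and 285 CPM in Xbp1-Ire1 KO, 156, 133 and 176 CPM in Xbp1 KO, with 276, 232 and 234 CPM in WT. Its Xbp1 KO values did not overlap those of either other genotype, and it was lower in Xbp1 KO than in WT by edgeR (−0.69 ± 0.16, adjusted p = 0.0139). Psmb7, the trypsin-like subunit, had 159, 135 and 153 CPM in Xbp1-Ire1 KO, 101, 96.0 and 126 CPM in Xbp1 KO, with 165, 145 and 127 CPM in WT. Its groups did not overlap, but the highest Xbp1 KO and the lowest WT library were almost equal, and the difference missed the threshold (−0.45 ± 0.14, edgeR adjusted p = 0.0629).

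Immune catalytic subunit transcripts were called lower in Xbp1 KO cDC1 for 2 of the 3 genes, Psmb8 and Psmb10. Over 15 refits with other settings or a library left out, Psmb8 was called in 8 and Psmb10 in 5. Psmb8 had 1098, 1088 and 1239 CPM in cDC1 Xbp1-Ire1 KO, 845, 805 and 1075 CPM in cDC1 Xbp1 KO and 1577, 1357 and 1060 CPM in cDC1 WT. Xbp1 KO replicate 3 lay above WT replicate 3, so the groups overlapped, while edgeR called Psmb8 lower in Xbp1 KO (−0.56 ± 0.16, adjusted p = 0.0346). Psmb9 had 731, 673 and 844 CPM in Xbp1-Ire1 KO, 576, 506 and 634 CPM in Xbp1 KO, with 881, 773 and 606 CPM in WT. It did not pass between Xbp1 KO and WT (−0.41 ± 0.15, edgeR adjusted p = 0.0954), and the groups overlapped at WT replicate 3. Psmb10 had 138, 131 and 161 CPM in Xbp1-Ire1 KO, 99.97, 75.5 and 109 CPM in Xbp1 KO, with 165, 156 and 105 CPM in WT. Its difference was −0.59 ± 0.18, at the threshold (edgeR adjusted p = 0.0499), with groups that overlapped at WT replicate 3. These are bulk samples, in which fewer cells of a type and less RNA per cell cannot be told apart.

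**Figure D1:**
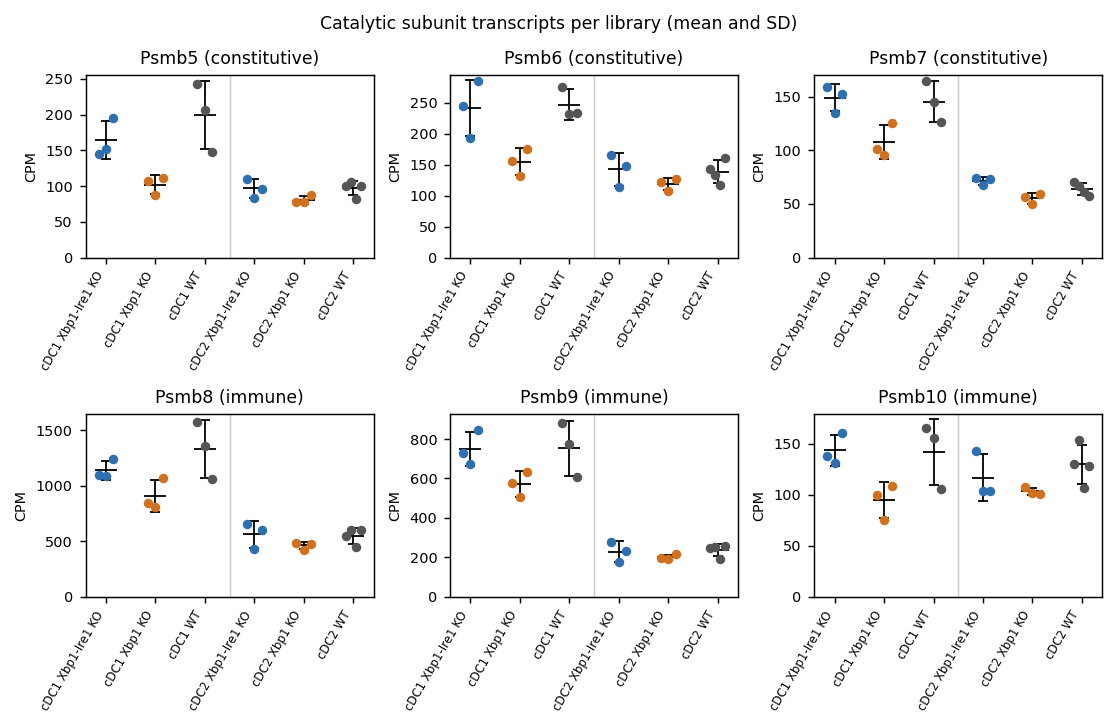
CPM of the 6 catalytic subunit genes in each library (points), with group mean and SD (black), for Xbp1-Ire1 KO, Xbp1 KO and WT of cDC1 (left of the grey line) and cDC2 (right). In cDC1, Psmb5 averaged 164 CPM in Xbp1-Ire1 KO, 102 CPM in Xbp1 KO and 199 CPM in WT, and 1 WT library lay near the knockouts for Psmb8, Psmb9 and Psmb10.

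In the alpha ring, whose subunits gate the entry to the core, 3 of 7 genes were called lower in cDC1 Xbp1 KO than in WT, 0 were called higher and 4 did not pass. Psma3 had 636, 411 and 613 CPM in Xbp1-Ire1 KO, 310.1, 286 and 329.6 CPM in Xbp1 KO, with 512, 432 and 505 CPM in WT (Xbp1 KO against WT −0.66 ± 0.16, edgeR adjusted p = 0.0189). Psma5 (−0.62 ± 0.15, edgeR adjusted p = 0.0178) and Psma2 (−0.44 ± 0.12, edgeR adjusted p = 0.0391) were the others called. In all 3 the Xbp1 KO libraries lay below all WT libraries. Among the non-catalytic beta subunits 3 of 4 were called lower: Psmb3 (−0.64 ± 0.14, edgeR adjusted p = 0.0138), Psmb2 (−0.61 ± 0.14, adjusted p = 0.0157) and Psmb4 (−0.66 ± 0.17, adjusted p = 0.0296). Psmb3 had 230.2, 211 and 252 CPM in Xbp1-Ire1 KO, 149, 121 and 165 CPM in Xbp1 KO, with 255, 222 and 195 CPM in WT. Psmb1 was the beta subunit that did not pass (−0.31 ± 0.15, edgeR adjusted p = 0.186).

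In the 19S regulator, the activators and the assembly factors, 4 of 24 genes were called lower. Of the 6 ATPases that unfold substrates at the base of the 19S regulator 1 was called lower, Psmc4 (−0.47 ± 0.12, edgeR adjusted p = 0.022), at 115, 135 and 136 CPM in Xbp1-Ire1 KO, 82.7, 79.6 and 89.7 CPM in Xbp1 KO, with 114, 119 and 114 CPM in WT. Of the 11 non-ATPases 2 were called lower, Psmd13 (−0.54 ± 0.12, edgeR adjusted p = 0.0136) and Psmd6. The ubiquitin receptor gene Psmd4, the scaffold genes Psmd1 and Psmd2 and the deubiquitinase gene Psmd14 did not pass in this comparison. Of the alternative activators Psme2, which encodes a subunit of the PA28 cap that is induced with the immune subunits, was lower (−0.62 ± 0.14, edgeR adjusted p = 0.0164), at 532, 416 and 577 CPM in Xbp1-Ire1 KO, 397, 328 and 424 CPM in Xbp1 KO, with 638, 546 and 565 CPM in WT. Its partner Psme1 did not pass (−0.14 ± 0.12, adjusted p = 0.512), and Psme2b, a gene 99.4% identical to Psme2 over 794 bases, may share reads with Psme2. The assembly factor genes Pomp (−0.35 ± 0.13), Psmg2 (−0.57 ± 0.20) and Psmg1 (0.05 ± 0.19) did not pass.

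In all, edgeR called 14 of 41 members lower in cDC1 Xbp1 KO against WT (34.1%), where 6.91% of the 11353 genes tested were lower, and 0 higher, where 4.28% of genes were. The median log2 fold change was −0.36 over the members and −0.02 over all genes tested, and 38 members lay below 0. Groups did not overlap for 26 members lower and 2 higher, Psmd12 and Psme4, against 15.8% and 14.4% of all genes. Summed over the 41 members the libraries held 7165 to 8557 CPM in Xbp1 KO and 9716 to 11101 CPM in WT. The number called fell to 1, Psmb5, without WT replicate 1, without Xbp1 KO replicate 1 or without Xbp1 KO replicate 2, and to 9 without WT replicate 2. Calls over all genes were fewer there as well, at 471, 550, 498 and 620, where 1270 were called with all libraries. Without Xbp1 KO replicate 3, the library with pancreatic transcripts, 12 members were called (897 of all genes). Against WT replicate 3 alone, the library of the WT-named line, 0 members passed (345 genes did), and against the fl-fl libraries 17 did (2926 genes). Direction was kept for all 14 members in all 15 alternatives, of which 2 are 1 fit here (fl-fl libraries alone, and without WT replicate 3), and Psmb5 was called in all but that against WT replicate 3 alone. Its log2 fold changes over the alternatives ran from −1.14 to −0.53, and its adjusted p-values from 1.06e-05 to 0.192, the highest in that fit.

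Transcript length moved with this comparison. Over all genes the median log2 fold change of Xbp1 KO against WT in cDC1 was −0.25 for exon lengths up to 1000 bases, −0.24 up to 1500, −0.13 up to 2500, −0.0025 up to 5000 and 0.19 above. For the members in the same bins (5, 15, 11, 8 and 2 genes) it was −0.64, −0.43, −0.26, −0.26 and −0.07. With a correction for length, added after the trend was seen, all 14 kept their direction, and the members' median was −0.21. In that fit 6 were still called lower (Psmb5, Psmb6, Psma3, Psmb2, Psmd13 and Psme2). Of all genes 1053 were called there, where 486 were higher and 784 lower without the correction. What part the trend has in the member differences was not tested beyond this correction.

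**Figure D2:**
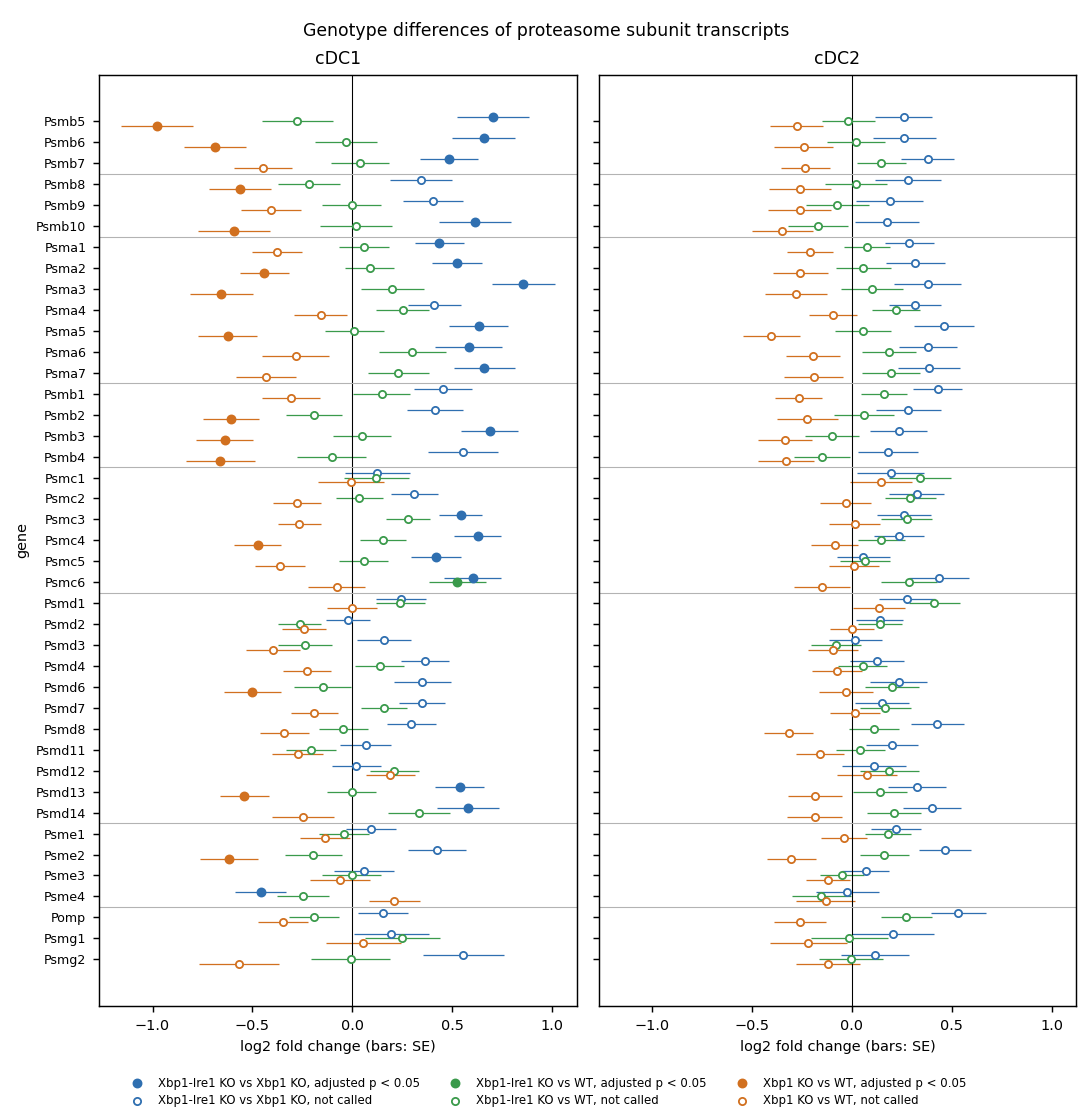
Log2 fold change (horizontal axis) with SE of each of the 41 genes in cDC1 (left) and cDC2 (right) for 3 genotype comparisons, by colour, with filled points at an edgeR adjusted p under 0.05. In cDC1 the comparison of Xbp1 KO with WT lies left of 0 for 38 genes and that of Xbp1-Ire1 KO with Xbp1 KO right of 0 for 39, and in cDC2 no point is filled.

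Against the single knockout, cDC1 lacking both genes held more of many subunit transcripts. EdgeR called 17 of 41 members higher in Xbp1-Ire1 KO than in Xbp1 KO (41.5%, where 7.13% of all genes tested were higher) and 1 lower (2.44%, against 5.52%), and the median was 0.42 over the members and 0.02 over all genes. Groups did not overlap for 27 members higher (17.3% of all genes) and 1 lower (19.3%). This comparison shares the Xbp1 KO libraries with the one above. Of the constitutive catalytic subunits 3 of 3 were called: Psmb5 (0.70 ± 0.18, edgeR adjusted p = 0.022), Psmb6 (0.66 ± 0.16, adjusted p = 0.0152) and Psmb7 (0.48 ± 0.14, adjusted p = 0.043). Of the immune subunits Psmb10 was called (0.61 ± 0.18, edgeR adjusted p = 0.041), and Psmb8 (0.35 ± 0.15, adjusted p = 0.162) and Psmb9 (0.40 ± 0.15, adjusted p = 0.0932) were not, although the groups of both did not overlap. In the alpha ring 6 of 7 were higher, all but Psma4, led by Psma3 (0.86 ± 0.16, adjusted p = 0.00371).

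Among the other beta subunits Psmb3 was called higher (0.69 ± 0.14, edgeR adjusted p = 0.00805). Of the base ATPases 4 of 6 were, Psmc3, Psmc4, Psmc5 and Psmc6. Psmc3 had 202, 217 and 233 CPM in Xbp1-Ire1 KO, 153, 152 and 148 CPM in Xbp1 KO, with 186, 178 and 175 CPM in WT, 3 ranges that did not overlap. Of the non-ATPases Psmd13 and Psmd14 were higher. Psmd14, which removes ubiquitin chains at the lid, had 289, 189.7 and 289 CPM in Xbp1-Ire1 KO and 178, 154 and 187 CPM in Xbp1 KO (0.58 ± 0.16, edgeR adjusted p = 0.0283). Psme4, which encodes the activator PA200, was the member that was lower, at 45.5, 51.9 and 48.0 CPM in Xbp1-Ire1 KO and 73.7, 63.8 and 64.5 CPM in Xbp1 KO (−0.46 ± 0.13, adjusted p = 0.0347). The number of members called was 5 without Xbp1-Ire1 KO replicate 1, 4 without its replicate 3, 4 without Xbp1 KO replicate 1 and 3 without its replicate 2. Calls over all genes were fewer there as well, at 709, 778, 658 and 648, where 810 were higher and 627 lower with all libraries. Without Xbp1 KO replicate 3, the library with pancreatic transcripts, 19 members were called (1297 of all genes). Psma3 and Psmc3 were called in all 13 alternatives run. Here the length trend ran the other way, with all-gene medians of 0.36 up to 1000 bases and −0.23 above 5000. After the length correction all 18 kept their direction, with a members' median of 0.17. In that fit 4 were still called, Psma2, Psma3, Psmc3 and Psmd13, all higher, and 1071 of all genes were called.

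Against WT, cDC1 of Xbp1-Ire1 KO mice differed in 1 member. Psmc6, a base ATPase, was higher at 119.9, 92.1 and 117 CPM in Xbp1-Ire1 KO and 68.1, 72.9 and 87.7 CPM in WT (0.53 ± 0.14, edgeR adjusted p = 0.0384), in 2.44% of members where 3.04% of all genes were higher. 0 members were lower, where 4.71% of all genes were, and 3 members had an unadjusted p under 0.05, as had 2558 of the 11353 genes. The members' median was 0.04, with 23 above 0 and 18 below. The Psmc6 call was lost without WT replicate 1 or 2 or without Xbp1-Ire1 KO replicate 1 or 3, and 2 members passed without Xbp1-Ire1 KO replicate 2 (Psmc6 and Psmd14). Against the fl-fl libraries alone, that is without WT replicate 3, 3 passed, Psmc6 and Psmd1 higher and Psmb5 lower (−0.46, edgeR adjusted p = 0.0494). Of all genes 731 passed without Xbp1-Ire1 KO replicate 2 and 1966 against the fl-fl libraries, where 345 were higher and 535 lower with all libraries. Over the alternatives of Psmc6 the adjusted p ran from 0.00736 to 0.358. Psmc6 lies on chromosome 14 (chr14:45329788-45349705), and of the 16 other tested genes within 2 Mb 0 were called higher and 1 lower. Psmc5 lies 131530 bases from Ern1 on chromosome 11 and did not pass between Xbp1-Ire1 KO and WT (0.06 ± 0.12). Against Xbp1 KO it was called higher, as given above. That call held in 5 of 13 alternatives, and in 0 of the 6 with a library left out. Of the 36 other tested genes within 2 Mb, 2 were higher and 5 lower against Xbp1 KO, where 7.13% and 5.52% of all genes were. What part the position has in the Psmc5 difference was not tested.

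In cDC2 no member passed in any genotype comparison. By edgeR 0 of 41 were called in Xbp1 KO against WT, where 0.103% of 11646 genes were called, with 7 members at an unadjusted p under 0.05 (1127 of all genes), a median of −0.19 and 34 members below 0. For Xbp1-Ire1 KO against WT 0 were called (0.0258% of genes), with 4 at an unadjusted p under 0.05 (877 of all genes) and a median of 0.11. For Xbp1-Ire1 KO against Xbp1 KO 0 were called (0.0343% of genes), with 16 at an unadjusted p under 0.05 (960 of all genes), a median of 0.26 and 40 members above 0. DESeq2 and limma also called 0 in each. Groups did not overlap for 8 members lower in Xbp1 KO against WT (5.15% of all genes), for 4 members higher in Xbp1-Ire1 KO against WT (3.37%) and for 15 members higher in Xbp1-Ire1 KO against Xbp1 KO (8.91%). Psmb5 had 110.4, 83.5 and 96.5 CPM in cDC2 Xbp1-Ire1 KO, 77.1, 78.2 and 87.4 CPM in cDC2 Xbp1 KO and 99.6, 106, 82.3 and 99.8 CPM in cDC2 WT, which overlap. Psmb8 had 661, 429 and 598 CPM in Xbp1-Ire1 KO, 488, 423 and 479 CPM in Xbp1 KO, with 544, 605, 446 and 598 CPM in WT. Against WT of the fl-fl line alone 1 member was called in cDC2 Xbp1-Ire1 KO, Psmd1, higher by 0.600 (edgeR adjusted p = 0.0233). In that fit 485 of all genes were called, where 3 were with all WT libraries. For Xbp1 KO against the fl-fl libraries 0 members and 740 genes were called, where 12 genes were with all WT libraries.

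The members of smallest p in cDC2 were Psma5 (−0.40 ± 0.14), Psmd8 (−0.32 ± 0.12) and Psmb3 (−0.33 ± 0.13) for Xbp1 KO against WT, at edgeR adjusted p-values of 0.471 to 0.496. For Xbp1-Ire1 KO against WT they were Psmd1 (0.41 ± 0.13), Psmc2 (0.29 ± 0.13) and Psmc1 (0.34 ± 0.16), at adjusted p-values of 0.647 to 0.66. For Xbp1-Ire1 KO against Xbp1 KO they were Pomp (0.53 ± 0.14), Psme2 (0.47 ± 0.13) and Psmb1 (0.43 ± 0.12), all at an adjusted p of 0.474. The difference of the genotype effect between the cell types was tested as an interaction. EdgeR called 0 members for Xbp1 KO against WT (2.17% of 12185 genes were called; 4 members and 1577 genes at an unadjusted p under 0.05), and the smallest adjusted p was 0.141, for Psmb5 (−0.71 ± 0.23, cDC1 minus cDC2). It called 0 for Xbp1-Ire1 KO against WT (2.23% of genes; 2 members and 1525 genes unadjusted; Psmd2 at adjusted p = 0.149) and 0 for Xbp1-Ire1 KO against Xbp1 KO (2.14% of genes; 4 members and 1607 genes unadjusted; smallest adjusted p = 0.308, Psmc4). DESeq2 called Psmd2 in the second of these (−0.42, adjusted p = 0.0492) and 0 in the others, and Psmb5 passed in the first without cDC1 WT replicate 3 (−0.88, adjusted p = 0.0208). With all libraries kept, edgeR called no member's genotype difference as differing between cDC1 and cDC2.

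**Figure D3:**
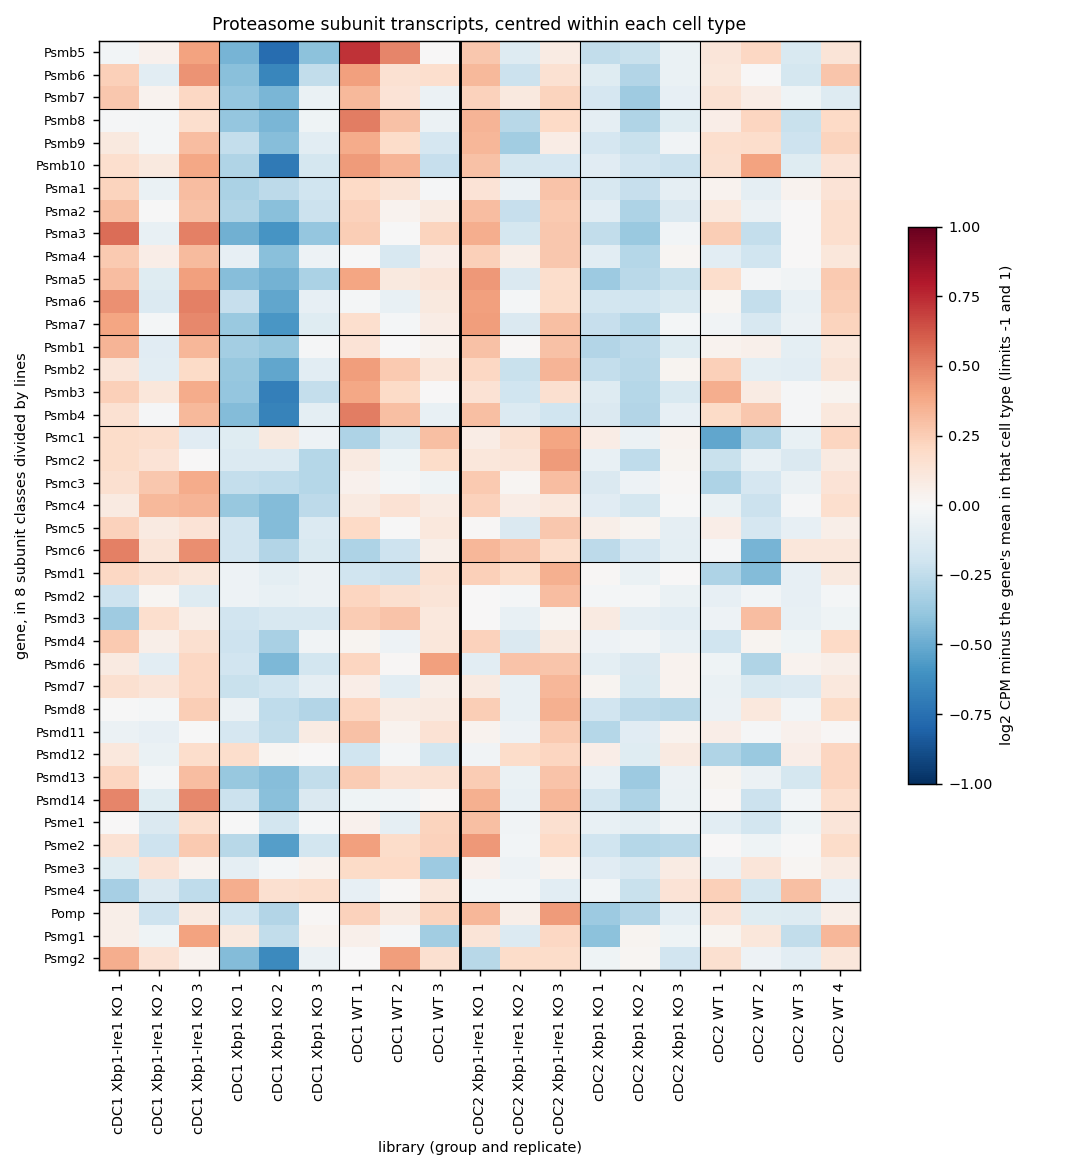
Each of the 41 genes (rows, in 8 subunit classes) in the 19 libraries (columns, by group), coloured by log2 CPM minus the gene's mean in that cell type, with the colour scale cut at -1 and 1. The 3 cDC1 Xbp1 KO libraries are blue for most core subunits, and cDC1 WT replicate 3 is lower than WT replicate 1 for all 6 catalytic subunits.

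The ratio of an immune to its constitutive counterpart was taken within each library, per exon length, so it needs no scaling between libraries. Psmb8 over Psmb5 was 4.18, 3.94 and 3.50 in cDC1 Xbp1-Ire1 KO, 4.36, 5.10 and 5.33 in cDC1 Xbp1 KO and 3.58, 3.62 and 3.96 in cDC1 WT. All 3 Xbp1 KO libraries lay above all others. Psmb9 over Psmb6 was 1.76, 2.05 and 1.75 in Xbp1-Ire1 KO, 2.18, 2.25 and 2.13 in Xbp1 KO and 1.88, 1.97 and 1.53 in WT, again highest in Xbp1 KO. Psmb10 over Psmb7 was 0.766, 0.862 and 0.933 in Xbp1-Ire1 KO, 0.877, 0.696 and 0.765 in Xbp1 KO and 0.887, 0.952 and 0.734 in WT, which overlap. In cDC2 the mean ratio of Psmb8 to Psmb5 was 3.19 in Xbp1-Ire1 KO, 3.17 in Xbp1 KO and 3.12 in WT. Psmb5 and Psmb6 have exon lengths of 899 and 798 bases and Psmb8 and Psmb9 of 1628 and 1352, so the ratios also set shorter against longer transcripts. No test was run on these ratios, which summarise chosen members.

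**Figure D4:**
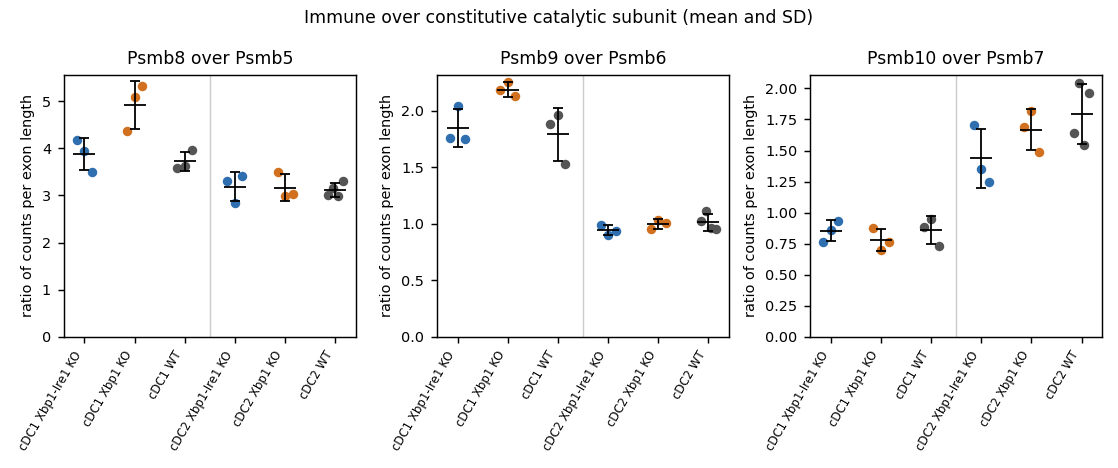
Ratio of counts per exon length of an immune over a constitutive catalytic subunit in each library (points), with mean and SD, for the 3 genotypes of cDC1 (left of the grey line) and cDC2 (right). The cDC1 Xbp1 KO libraries are highest for Psmb8 over Psmb5 and Psmb9 over Psmb6, and cDC2 libraries are higher than cDC1 for Psmb10 over Psmb7.

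Most members were higher in cDC1 than in cDC2. In WT, edgeR called 31 of 41 members higher in cDC1 than in cDC2 (75.6%, where 20% of 12185 genes were higher) and 0 lower (20.7%), with a members' median of 0.52 and an all-gene median of −0.04. Psmb9 had 881, 773 and 606 CPM in cDC1 WT and 249.5, 251, 192 and 259 CPM in cDC2 WT, a log2 fold change of 1.66 ± 0.16 (edgeR adjusted p = 3.32e-08). Psmb8 had 1577, 1357 and 1060 CPM in cDC1 WT and 544, 605, 446 and 598 CPM in cDC2 WT (1.28 ± 0.16, adjusted p = 1.34e-06). Psmb10 had 165, 156 and 105 CPM in cDC1 WT and 130.2, 154, 107 and 128 CPM in cDC2 WT, which overlap, and it did not pass (0.13). Psmb5, Psmb6 and Psmb7 were each higher in cDC1 WT, by 0.83 to 1.18, and Psmb10 was the catalytic subunit gene that did not pass.

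The PA28 genes and the assembly factor Pomp were among the most different. Psme1 had 632, 578 and 716 CPM in cDC1 WT and 238, 226, 249 and 279 CPM in cDC2 WT (1.37 ± 0.11, edgeR adjusted p = 5.19e-09), and Psme2 differed by 1.07 ± 0.13 (adjusted p = 1.06e-06). Pomp, needed for assembly of the core, had 381, 345 and 379 CPM in cDC1 WT and 164, 137, 136 and 155 CPM in cDC2 WT (1.32 ± 0.12, adjusted p = 2.03e-08). All 7 alpha ring and all 4 other beta ring genes were higher in cDC1 WT, with class medians of 0.72 and 0.79. In the 19S regulator 3 of 6 ATPases and 9 of 11 non-ATPases were, with medians of 0.38 for each. Psme3 and Psme4 did not pass. Between the WT-named library of cDC1 and those of cDC2 alone, fewer members and fewer of all genes were called. The 31 members called with all libraries kept their direction there, and Psmb10 was −0.17.

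In the knockouts edgeR called 20 members higher in cDC1 and 1 lower for Xbp1 KO (48.8%, where 18.4% of genes were higher, and 2.44%, where 20.8% were lower). The median was 0.35, and the member lower was Psmg2. It called 26 higher and 0 lower for Xbp1-Ire1 KO (63.4%, where 20.5% of genes were higher and 22.1% lower), with a median of 0.53. Psmb9 differed by 1.71 ± 0.17 in Xbp1-Ire1 KO and 1.51 ± 0.17 in Xbp1 KO. Psmb5 and Psmb6 did not pass in Xbp1 KO (0.33 and 0.38), and Psmb7 did (0.96 ± 0.13). Without cDC1 Xbp1 KO replicate 3, 13 members and 3979 of all genes were called between the cell types of Xbp1 KO. A block by description name and number kept only libraries that share these across the cell types. In that fit 10 members were called in Xbp1 KO, all higher (3636 genes). In WT the length trend was again present, with all-gene medians of 0.45 up to 1000 bases and −0.25 above 5000. The members' medians in these bins were 0.83 and 0.68, over 5 and 2 genes. With the length correction 26 members were called higher in WT, 19 higher and 2 lower in Xbp1 KO, and 18 higher in Xbp1-Ire1 KO. Of all genes 4793, 4748 and 4921 were called in these fits.

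**Figure D5:**
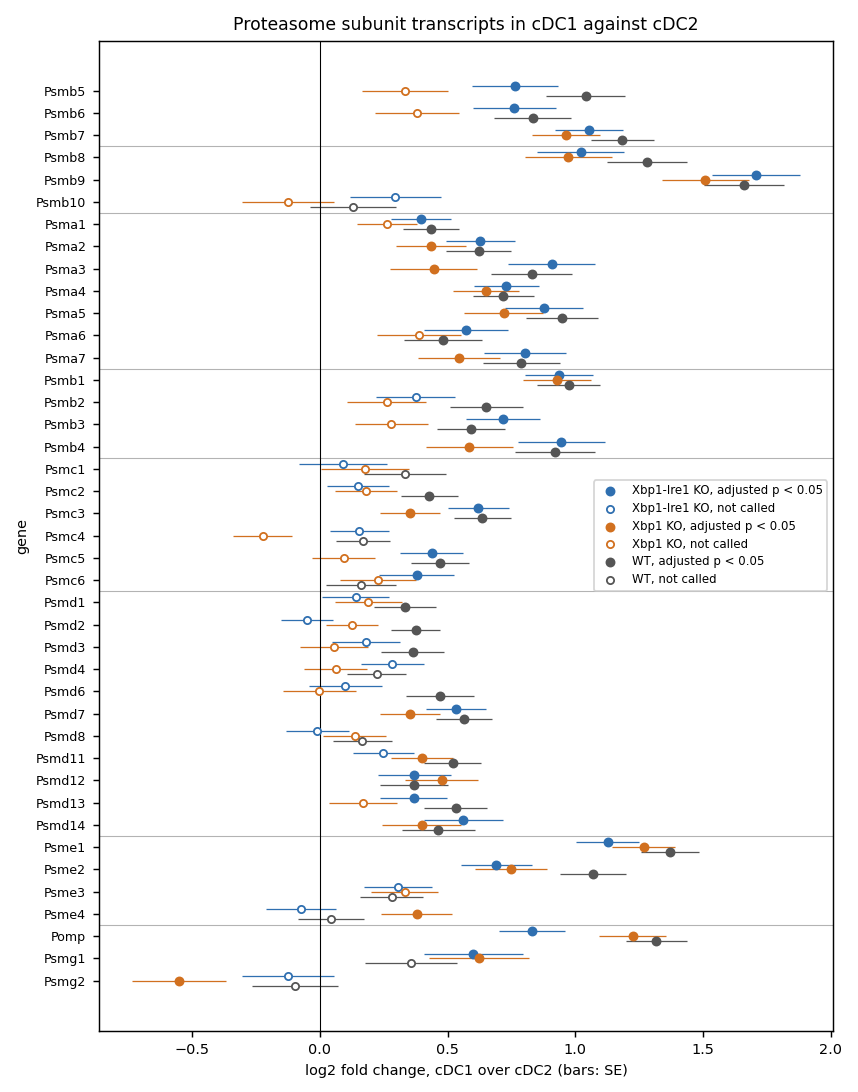
Log2 fold change of cDC1 over cDC2 (horizontal axis) with SE for each of the 41 genes in Xbp1-Ire1 KO (blue), Xbp1 KO (orange) and WT (grey), with filled points at an edgeR adjusted p under 0.05. Psmb9, Psme1, Pomp and Psmb8 lie farthest to the right in WT, and Psmg2 in Xbp1 KO is the filled point left of 0.

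By level per exon length, Psmb8, Psme2 and Psme1 were the 3 highest members in WT of both cell types. Psmb9 ranked 3 in cDC1 Xbp1-Ire1 KO and in cDC1 Xbp1 KO, at 554 and 423 CPM per kilobase. In cDC1 WT, Psmb8 had 818 ± 160 CPM per kilobase, Psme2 598 ± 49.9, Psme1 577 ± 62.3 and Psmb9 557 ± 103 (SD, n = 3), and Psmb6 followed at 310.1 ± 31.2. The ranges of Psme2, Psme1 and Psmb9 do not stand apart beyond their SD. In cDC2 WT, Psmb8 had 337 ± 45.2 CPM per kilobase, Psme2 285 ± 20.8, Psme1 223 ± 20.1, Psmb3 194 ± 24.01, Psmb2 179 ± 21.4 and Psmb9 176 ± 22.8 (SD, n = 4), and the last 3 do not stand apart beyond their SD. The third immune subunit, Psmb10, had 108 ± 24.6 CPM per kilobase in cDC1 WT and 99.0 ± 14.6 in cDC2 WT. The lowest in both was Psme4, at 8.90 CPM per kilobase in cDC1 WT and 8.65 in cDC2 WT.

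Genes around the proteasome were counted from lists chosen by pathway. Of all genes tested in cDC1, 4.28% were higher and 6.91% lower in Xbp1 KO against WT. In Xbp1-Ire1 KO against WT 3.04% were higher and 4.71% lower. The list counts here and in the next paragraph were not tested against these shares. Of 16 tested proteasome genes outside the members, 1 was higher and 2 lower in cDC1 Xbp1 KO against WT, with the assembly chaperone gene Psmg3 (−0.71 ± 0.19, edgeR adjusted p = 0.0329) and the ubiquitin receptor gene Adrm1 (−0.44 ± 0.13, adjusted p = 0.0494) lower and AI314180 higher. Of 25 genes that control proteasome transcription 2 were higher there, the antioxidant factor gene Nfe2l2 (1.23 ± 0.35, adjusted p = 0.041) and its partner Mafk (0.67 ± 0.19, adjusted p = 0.0377), and 0 were lower. In Xbp1-Ire1 KO against WT 1 of the 25 was higher, Nfe2l1, whose product raises subunit transcription when the proteasome is inhibited (0.80 ± 0.14, adjusted p = 0.00431), and 4 were lower, among them Irf1 (−1.07 ± 0.22, adjusted p = 0.00883), Nfe2l3 (−2.21 ± 0.51, adjusted p = 0.0165) and Rela (−0.59 ± 0.14, adjusted p = 0.0229). Nfe2l1 was also higher in Xbp1-Ire1 KO than in Xbp1 KO (0.54 ± 0.14, adjusted p = 0.026). Of 30 interferon-stimulated genes 0 were higher and 2 lower in cDC1 Xbp1 KO against WT, near the 6.91% of all genes lower there. These 2 were Bst2 (−0.90 ± 0.15) and Gbp5 (−1.15 ± 0.34), and 0 of the 30 were called in Xbp1-Ire1 KO against WT. In cDC2 no gene of these lists was called between genotypes, where at most 0.103% of all genes were.

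Ubiquitin and p97 genes (19 tested) gave 2 calls in cDC1 Xbp1-Ire1 KO against WT, the unfoldase gene Vcp (−0.42 ± 0.11, edgeR adjusted p = 0.0342) and its cofactor Nploc4 (−0.57 ± 0.14, adjusted p = 0.0217), both lower. Downstream of the proteasome, 18 genes of peptide supply to MHC class I gave 3 lower and 0 higher in Xbp1 KO against WT: Tapbp (−3.17 ± 0.21), B2m (−0.87 ± 0.15) and H2-K1 (−0.55 ± 0.15). In Xbp1-Ire1 KO against WT 3 were higher, Pdia3 (1.03 ± 0.11) and Calr (0.88 ± 0.11) among them, and 2 lower, H2-K1 (−0.78 ± 0.15) and H2-D1 (−0.56 ± 0.12). The peptide transporter genes Tap1 and Tap2 adjoin Psmb8 and Psmb9 on chromosome 17. Neither passed in cDC1 Xbp1 KO against WT (−0.12 ± 0.14 and −0.13 ± 0.12), while both were higher in cDC1 WT than in cDC2 WT (1.49 ± 0.17 and 1.27 ± 0.12).

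Across the 19 libraries, centred within each cell type, members varied together. Pearson's r of log2 CPM had a median of 0.58 over the 820 pairs of members and was above 0 in 89.0% of pairs. It was 0.93 between Psmb8 and Psmb9, 0.85 between Psmb8 and Psmb10 and 0.90 between Psmb9 and Psmb10. The genes whose pattern was most like that of these 3, by mean r, were Ppp1ca (0.92), Psmb4 (0.91), Ldha (0.90), Gpx1 (0.90), Aurkaip1 (0.89), Akr1a1 (0.89), Psmb5 (0.89), Uqcrfs1 (0.89), Slc25a5 (0.89) and Apoa1bp (0.88). These correlations are a description, since all points of a library share its depth, scaling and length trend. Centring within cell type did not remove the genotype differences given above, and no median over pairs of all genes was taken.

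Counting can mix reads between some members and other genes. Another annotated gene matched 15 of the 41 members at 95% or more over 200 bases or more, mostly processed pseudogenes, such as Gm3375 for Psmb5 (98.9% over 796 bases) and Gm13835 for Psma3 (100% over 685 bases). On the opposite strand Psmb9 shares 212 exon bases with Tap1, and Psmb7 405 with Nek6, and the use of strand in counting is not stated. The levels of these genes are therefore uncertain to that extent.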

How the data were processed

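Per the file headers, the deposited tables of raw counts per gene, separate for cDC1 and cDC2, have 1 column for each of the 19 libraries. The deposited log2 tables hold 11059 genes for cDC1 and 11441 for cDC2 and were checked to be log2 CPM (0.5 added to the count) shifted by a constant in each library. Tools listed in the submitters' processing notes are TopHat2 2.1.0, SAMtools 0.1.19, build mm10, limma 3.42.2, FastQC 0.11.4 and Trimmomatic 0.35, with no roles stated. Which program, annotation and strand setting produced the counts is not given in the sources used here.

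Groups followed cell type and genotype as labelled. Tests on the counts used edgeR 4.0.16 (R 4.3.3): filterByExpr (minimum count 10, minimum total 15), TMM, the quasi-likelihood F test and Benjamini-Hochberg adjustment over all tested genes, called at an adjusted p under 0.05. Each cell type had 1 fit of its 3 genotypes, and interactions and cDC1 against cDC2 in all 19 libraries. SE is the absolute log2 fold change over the square root of F. Exon lengths are unions from GENCODE M21 (GRCm38), where all 41 symbols matched. Results were recomputed with no filter, with a replicate block, with DESeq2 1.42.0 or only its size factors, with limma 3.58.1 on the deposited values, without the third genotype, with either WT name alone, with a length correction (added after seeing the data) and with each library left out. A lone library was assumed to vary like the other groups. The code was tested on simulated counts. The members and lists were chosen with earlier results of these data known. In each comparison called members could be named, with full statistics for at most the 12 of smallest adjusted p. The 6 catalytic subunits were named throughout, the 3 members of smallest p where none was called, up to 4 genes of each other list and the 10 genes most correlated with Psmb8 to Psmb10. Members that changed status in an alternative, those with groups apart and those at the ends of the level range were named after their values were seen. Some results of the other lists are not reported here. Figures used matplotlib 3.10.9 in Python 3.11.15.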

Additional observations from a re-analysis of the deposited data

Results flagged for a closer look

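In cDC2 WT, the group with 4 libraries, 45 sets of values were screened for a library that lies far from the rest, and chance sets apart about 1 in 20 such groups. For Psmb9 replicate 3 lay below the others, at 192 CPM against 249.5 to 259 CPM, a gap of 0.854 of the group's range. For Psmd3 replicate 2 lay above the others, at 149 CPM against 114 to 117 CPM, a gap of 0.924 of the range.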

How the results depend on the processing

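Among other normalizations, filters, tools and WT subsets, called members kept their direction in every alternative. In cDC1 Xbp1 KO against WT the count of 14 members became 9 with the compared groups alone, 17 against the fl-fl WT libraries, 0 against the WT-named library and 6 with the length correction, and 1 to 17 with single libraries left out. In cDC1 Xbp1-Ire1 KO against WT the count of 1 became 0 with the compared groups alone, 3 against the fl-fl libraries, 0 against the WT-named one and 0 to 3 with libraries left out. In cDC1 Xbp1-Ire1 KO against Xbp1 KO the count of 18 became 4 with the length correction, 25 with DESeq2 and 3 to 19 with libraries left out. Calls over all genes moved as well. They were 1071, 1977 and 648 to 1297 in these fits, where 810 were higher and 627 lower as reported. For Xbp1 KO against WT they were 828 with the compared groups alone and 471 to 2926 with libraries left out. There 486 were higher and 784 lower as reported. For Xbp1-Ire1 KO against WT they were 575 with the compared groups alone and 1966 against the fl-fl libraries. In cDC2 the count of 0 members became 1 in Xbp1-Ire1 KO against the fl-fl libraries (485 of all genes). The interaction counts of 0 became 1 with DESeq2 for Xbp1-Ire1 KO against WT and 0 to 1 with libraries left out for Xbp1 KO against WT. Between the cell types, with libraries left out, the count of 31 in WT became 28 to 31. That of 21 in Xbp1 KO became 13 to 21 and that of 26 in Xbp1-Ire1 KO 20 to 28. Calls over all genes ran from 4158 to 5087, 3956 to 4252 and 4405 to 4914 in these fits. With only the WT-named libraries, fewer members and fewer of all genes were called between the cell types of WT. With a replicate block by title number the counts in cDC1 were 14, 1 and 17 (1211, 847 and 1376 of all genes). A block by description name and number kept only the 6 pairs of libraries that share these across the cell types. With it the counts between cell types were 30 in WT, 10 in Xbp1 KO and 24 in Xbp1-Ire1 KO (3837, 3636 and 4385 of all genes). Whether the numbers pair the libraries is not stated. Over 18 pairs within cell types the correlation of same-numbered libraries, as deviations from group means, ran from −0.128 to 0.218. Over the 6 pairs between cell types it ran from −0.218 to 0.258. With so few libraries a group these values cannot settle whether libraries are paired. The cause of these shifts was not tested.

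Signs turned for the catalytic subunits below, none of them called as reported or where the sign turned. In cDC1 Xbp1-Ire1 KO against WT, Psmb9 was 0.00552 with DESeq2, 0.00551 with its size factors, 0.00729 with limma and 0.32 against the WT-named library, where Psmb5 was 0.16, Psmb6 0.053 and Psmb8 0.12. Against the fl-fl libraries Psmb7 was −0.057 and Psmb10 −0.16, and with the length correction −0.039 and −0.041. In cDC2 Xbp1-Ire1 KO against WT, Psmb8 was −0.061 against the fl-fl libraries, Psmb5 0.083 and Psmb9 0.017 against the WT-named ones, and Psmb6 −0.057 with the length correction. In cDC2 Xbp1-Ire1 KO against Xbp1 KO, Psmb6 was −0.00093 with the length correction. In the interactions with the WT-named libraries, Psmb9 was 0.093 and Psmb10 0.045 for Xbp1 KO against WT, and Psmb5 0.075, Psmb6 0.020 and Psmb8 0.010 for Xbp1-Ire1 KO against WT. In the interaction for Xbp1-Ire1 KO against Xbp1 KO, Psmb7 was −0.059 and Psmb8 −0.064 with the length correction. Between WT cell types Psmb10 was −0.17 for the WT-named libraries and −0.12 with the length correction. With libraries left out, Xbp1-Ire1 KO against WT ran in cDC1 from −0.16 to 0.0997 for Psmb6, −0.057 to 0.13 for Psmb7, −0.14 to 0.12 for Psmb9 and −0.16 to 0.14 for Psmb10. In cDC2 it ran from −0.12 to 0.090 for Psmb5, −0.0985 to 0.17 for Psmb6, −0.11 to 0.20 for Psmb8 and −0.23 to 0.10 for Psmb9, and Psmb10 in cDC2 Xbp1-Ire1 KO against Xbp1 KO from −0.0034 to 0.26. The interaction for Xbp1-Ire1 KO against WT ran from −0.21 to 0.099 for Psmb6, −0.11 to 0.26 for Psmb9 and −0.0091 to 0.39 for Psmb10, that for Xbp1-Ire1 KO against Xbp1 KO from −0.11 to 0.22 for Psmb8, and Psmb10 between cell types of Xbp1 KO from −0.24 to 0.015. The lowest count of any member was 147, and no fit at reduced depth was run.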
